A study of Arabidopsis thaliana with 18 samples.

Results

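Messenger RNA of whole 7-day-old Arabidopsis thaliana seedlings was compared between sav3-2 mutants and Col-0 wild type after 1 h of simulated shade, on 3 sav3-2 arrays and 3 Col-0 arrays of the 18 in the series. The 6 arrays were taken by their titles, which mark low R:FR samples SH. All seedlings grew at 22 °C under simulated continuous white light, made of 13 µmol m-2 s-1 red and 1.23 µmol m-2 s-1 blue. The SH groups then had 1 h with 20.2 µmol m-2 s-1 far-red added, which set R:FR at 0.7. The sav3-2 line carries the mutation in the Col-0 ecotype, and the labels name no other allele or agent in either group. Used beside them were 3 sav3-2 and 3 Col-0 arrays of seedlings kept in white light, and 3 sav1-1 arrays after low R:FR. The labels call the replicates independent and biological.

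Leaves absorb red and pass far-red light, so a drop in R:FR signals neighbours to a plant. Phytochrome is then inactivated, PIF transcription factors become active, and the shoot elongates. SAV3, also named TAA1, is an aminotransferase that turns tryptophan into indole-3-pyruvate, from which YUCCA flavin monooxygenases make the hormone auxin. Auxin causes Aux/IAA repressors to be degraded, which frees ARF factors to switch on GH3, SAUR and Aux/IAA genes. The comparison therefore asks how the transcriptome of a line impaired in auxin synthesis stands after shade. No probe set used here names TAA1, so the mutated gene was not analysed here and the genotype labels rest on the titles.

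After 1 h of shade, genes of the early auxin and shade response stood lower in sav3-2, among them HAT2, GH3.3, WES1, IAA29 and AT2G18010 (SAUR10). Higher in sav3-2 were QQS, whose product influences starch content, and genes of varied kinds, among them AT2G41090, AT5G03350 and ECS1. Limma called 67 probe sets higher in sav3-2 (0.391% of 17125 tested) and 110 lower (0.642%), in all 177 (1.03%), at a Benjamini-Hochberg adjusted p under 0.05. At least 2-fold changes were called for 27 probe sets higher (0.158%) and 39 lower (0.228%). With the replicate number as a block, 172 were called higher and 225 lower. On the values as deposited, without normalization between arrays, 47 were higher and 36 lower, and the median of all probe sets moved to 0.17 on the log2 scale. The 110 lower calls became 65 without Col-0 SH replicate 1, 71 without Col-0 SH replicate 2 and 71 without sav3-2 SH replicate 1. The 67 higher calls became 29 without sav3-2 SH replicate 1, 36 without sav3-2 SH replicate 2 and 42 without Col-0 SH replicate 2.

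All 177 called probe sets had sav3-2 arrays wholly outside the Col-0 arrays, as did 15.3% of all probe sets tested (7.8% higher and 7.53% lower). Of those called, 31 of the 67 higher and 43 of the 110 lower name 1 gene, and 35 and 66 are unnamed here. The unnamed calls include the probe sets furthest below Col-0 in sav3-2, 258399_at at -2.85 and 260152_at at -2.77. Among unnamed probe sets that were higher, 245265_at stood at 2.69 and 265837_at at 2.46. The genes named below are thus a part of the difference. Across the 6 arrays, deposited median intensities ran from 38.6 to 65.9, and log2 values correlated with r from 0.975 to 0.984 within a genotype and 0.970 to 0.979 between genotypes. In whole seedlings, fewer cells of a type and less RNA per cell cannot be told apart. Values below are quantile-normalized log2(intensity + 16), and every difference is sav3-2 minus Col-0 on that scale, which understates the change of dim genes. Standard errors (SE) and adjusted p-values are limma's, and standard deviations (SD) are over 3 arrays.

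HAT2 encodes a homeodomain leucine zipper transcription factor that auxin and shade induce. After low R:FR its level was 8.25, 8.18 and 7.69 on the sav3-2 arrays, against 10.31, 10.10 and 10.20 on the Col-0 arrays. The groups lay far apart, with a difference of -2.16 (SE 0.13, adjusted p = 3.80e-09), or 4.47-fold lower in sav3-2. In white light HAT2 was already lower, at 7.06 ± 0.13 in sav3-2 and 8.03 ± 0.14 in Col-0 (SD, n = 3 each; limma adjusted p = 0.000348). The mutant after shade thus stood near the level of the wild type without shade, 8.04 ± 0.30 against 8.03 ± 0.14.

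GH3.3, an enzyme that conjugates auxin to amino acids, measured 6.93, 6.47 and 6.54 in sav3-2 after low R:FR and 8.59, 8.36 and 8.30 in Col-0. It was 3.41-fold lower in the mutant (-1.77, SE 0.14, adjusted p = 1.17e-07). Its white light difference of -0.29 (SE 0.14, adjusted p = 0.680) did not pass the test. WES1, also called GH3.5 and of the same enzyme family, measured 8.17, 8.13 and 8.18 in sav3-2 and 9.37, 9.07 and 9.03 in Col-0. The 3 sav3-2 values differed by less than 0.1, and all lay below Col-0 (-1.0, SE 0.14, adjusted p = 0.000158). WES1 was called lower in white light too (-0.63, SE 0.14, adjusted p = 0.0331). Its difference between lights, -0.36 (SE 0.19), was not called. Without normalization between arrays the call of WES1 after low R:FR ended (-0.79, SE 0.28, adjusted p = 0.422). Of the other GH3 genes measured, none passed the test without the replicate block, and GH3.17 did with it (-0.46, SE 0.10, adjusted p = 0.0143). Without the block GH3.1 stood at -0.77 (SE 0.25), GH3.17 at -0.46 (SE 0.14) and GH3.9 at -0.22 (SE 0.23). In that fit 2 of 5 GH3 genes were called lower, against 0.642% of all probe sets. All sav3-2 arrays lay below all Col-0 arrays for 4 of 5, against 7.53% of all probe sets. The GH3 median was -0.77, against 0.00746 over all probe sets.

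IAA29 encodes an Aux/IAA repressor and measured 8.60, 8.43 and 7.61 in sav3-2 after low R:FR, against 10.22, 9.95 and 9.84 in Col-0. It was lower by -1.79 (SE 0.35, adjusted p = 0.00809). Replicate 3 was the lowest of each genotype. The call was lost without Col-0 SH replicate 1 (-1.68, adjusted p = 0.0508) and without sav3-2 SH replicate 3 (-1.49, adjusted p = 0.0591). In white light IAA29 stood at 5.47 ± 0.10 in sav3-2 and at 6.62 ± 1.13 in Col-0 (SD, n = 3 each), a difference of -1.15 that was not called without the block (limma adjusted p = 0.253) and was called with it (limma adjusted p = 0.0136). Of the 4 Aux/IAA genes measured this was the one called. IAA34 stood at -0.75 (SE 0.25), IAA30 at -0.35 (SE 0.16) and IAA18 at 0.26 (SE 0.13).

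AT2G18010 is SAUR10, one of the small auxin-upregulated RNAs linked to cell expansion. It was dim, at 4.86, 4.79 and 5.09 in sav3-2 and 6.19, 5.97 and 6.05 in Col-0 after low R:FR (-1.16, SE 0.20, adjusted p = 0.00260). In white light it stood near the lower end of the scale in both genotypes, 4.43 ± 0.16 in sav3-2 and 4.26 ± 0.21 in Col-0. Its call ended with a pseudocount of 1, where the difference was -1.80 (SE 0.52, adjusted p = 0.134). The second SAUR gene measured, AT3G53250, stood at 0.25 (SE 0.66).

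**Figure D1:**
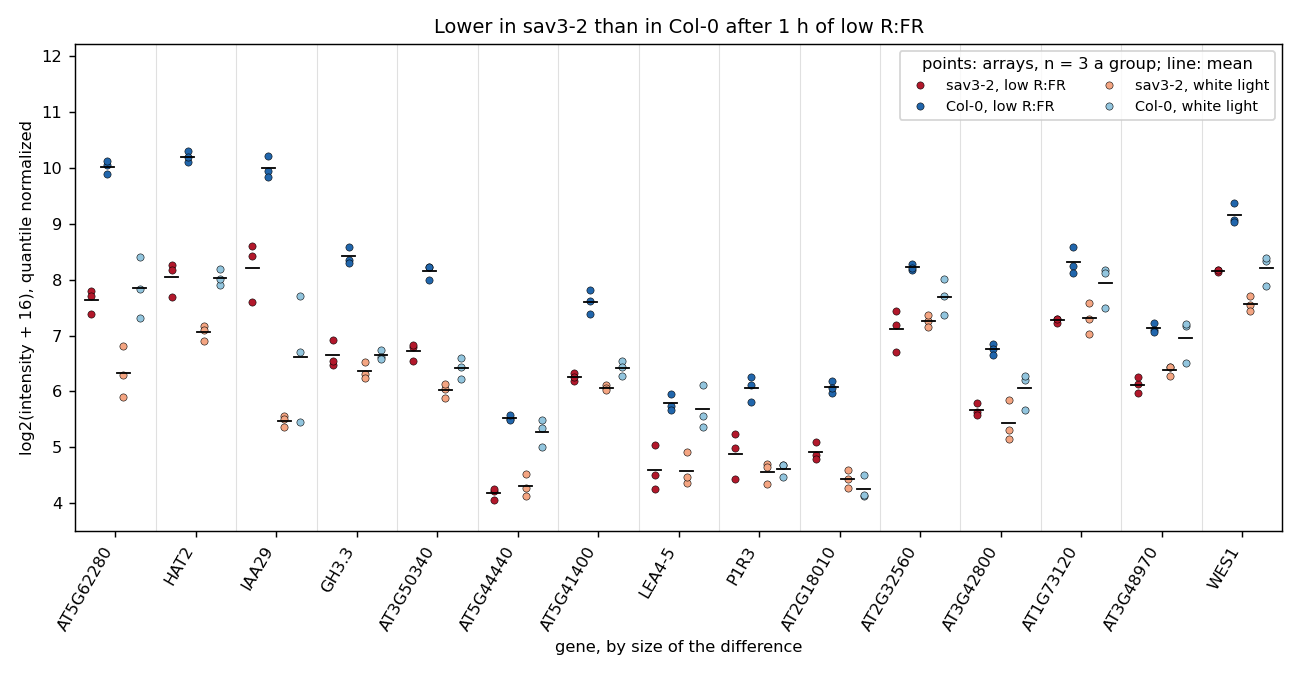
Level of the 15 named genes furthest below Col-0 in sav3-2 after low R:FR, as log2(intensity + 16) per array. Shown are sav3-2 and Col-0 after low R:FR and in white light (points are arrays, n = 3 a group, and lines are means). In all 15 the sav3-2 arrays after low R:FR lie below the Col-0 arrays; HAT2 of shaded sav3-2 (mean 8.04) lies near Col-0 in white light (8.03).

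Several genes that stood as far below Col-0 are less well characterised. AT5G62280, which encodes a protein with a domain of unknown function, stood furthest below Col-0 of the named genes. It measured 7.79, 7.39 and 7.70 in sav3-2 against 10.05, 9.89 and 10.12 in Col-0 (-2.39, SE 0.21, adjusted p = 4.51e-07). It was lower in white light too, 6.34 ± 0.46 in sav3-2 and 7.85 ± 0.55 in Col-0 (SD, n = 3 each; limma adjusted p = 0.000442). AT3G50340, of unknown function, measured 6.79, 6.82 and 6.55 in sav3-2 and 8.22, 8.0 and 8.23 in Col-0 (-1.43, SE 0.13, adjusted p = 4.51e-07). AT5G41400, a RING-type zinc finger protein, measured 6.34, 6.18 and 6.26 against 7.62, 7.39 and 7.81 in Col-0 (-1.34, SE 0.14, adjusted p = 6.22e-06).

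P1R3 was lower in sav3-2 (-1.18, SE 0.24, adjusted p = 0.0126), with 4.44, 4.98 and 5.23 in sav3-2 and 6.25, 6.12 and 5.82 in Col-0. In white light the genotypes stood close, 4.56 ± 0.19 in sav3-2 and 4.61 ± 0.13 in Col-0. Its call was lost without Col-0 SH replicate 1 (-1.08, adjusted p = 0.0797), without sav3-2 SH replicate 1 (-0.96, adjusted p = 0.106) and without Col-0 SH replicate 2 (-1.16, adjusted p = 0.0619). It was also lost with a pseudocount of 1 (-1.93, adjusted p = 0.0684). AT2G32560, an F-box protein (-1.10), AT3G42800 (-1.08), AT1G73120 (-1.04) and AT3G48970, with a heavy metal-associated domain (-1.01), are also among the 15 furthest below Col-0. Without normalization between arrays AT2G32560 (adjusted p = 0.124), AT1G73120 (adjusted p = 0.254) and AT3G48970 (adjusted p = 0.145) were no longer called.

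A further 28 named genes were called lower, and those given here were chosen after their values were seen. AT4G27280, an EF-hand calcium-binding protein whose gene lies next but one to WES1, stood at 8.47 ± 0.09 in sav3-2 and 9.38 ± 0.35 in Col-0 (SD, n = 3 each). It was lower by -0.90 (SE 0.17, limma adjusted p = 0.00809), while its white light difference was 0.12. PUB25, a U-box ubiquitin ligase, differed by -0.83 after low R:FR and by -0.02 in white light. BZIP61, a basic leucine zipper factor, was lower by -0.73 (SE 0.14, adjusted p = 0.00678) and is the one of 11 bZIP genes measured that was called. In white light its difference of -0.47 was not called without the replicate block (adjusted p = 0.228) and was called with it (adjusted p = 0.0291). The 28 differences after low R:FR span -0.98 to -0.48.

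No gene of auxin synthesis or transport that was measured passed the test without the replicate block, and YUC2 did with it. YUC2, which makes auxin from indole-3-pyruvate, measured 7.04, 6.89 and 6.80 in sav3-2 and 6.55, 6.31 and 6.54 in Col-0 after low R:FR. The arrays did not overlap, with sav3-2 above Col-0, and the difference of 0.44 had an adjusted p of 0.107 without the block and 0.0492 with it (SE 0.12 in each). YUC6 stood at 0.34 (SE 0.28), and UGT74D1, a glucosyltransferase that acts on auxin and its catabolites, at 0.20 (SE 0.13). Of this list 3 genes were measured, none was called without the block and 1 with it, and the median was 0.34. For the protein kinase genes WAG2 and PID2, relatives of PINOID that direct auxin efflux carriers, the differences were -0.60 (SE 0.24) and -0.03 (SE 0.22). No ARF or auxin receptor gene on the list was measured here. Among 6 other genes listed as auxin-induced HAT2 and EXLA2 were called lower, and EXPA8 is given with the cell wall genes. LBD16 stood at -0.31 (SE 0.15), EXLA1 at -0.16 (SE 0.24) and BIM1 at 0.25 (SE 0.22). BIM1 is also the 1 gene measured on the brassinosteroid list.

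**Figure D2:**
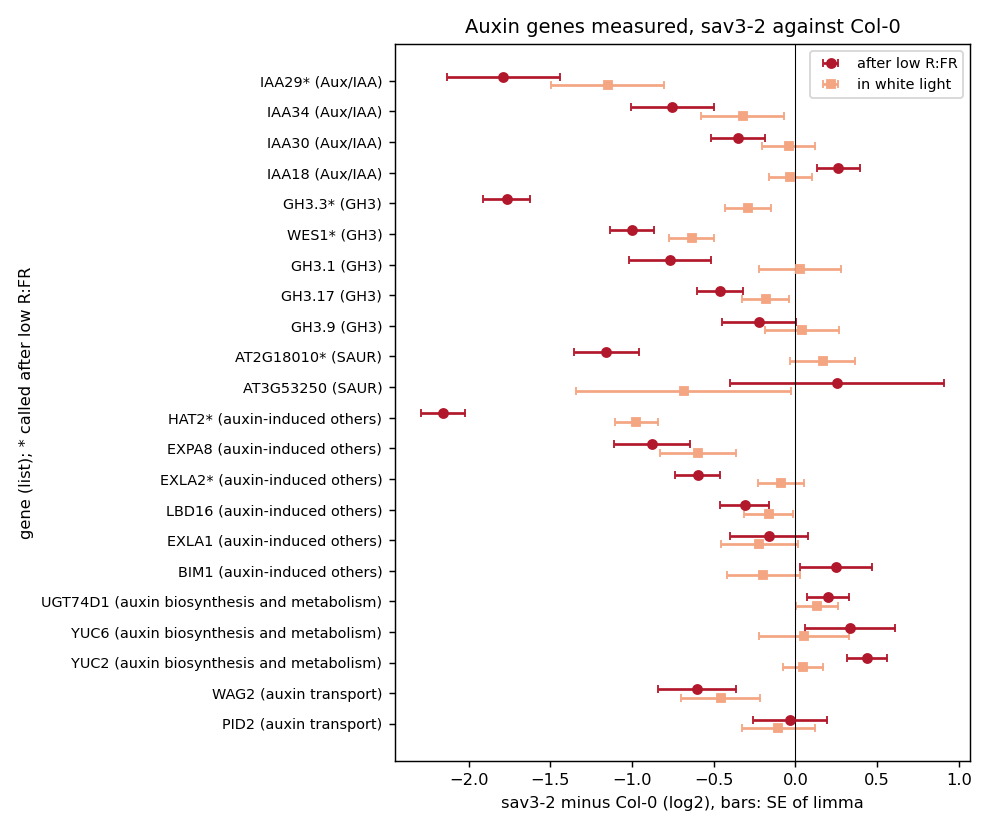
Difference sav3-2 minus Col-0 (log2) for the 22 genes measured on the auxin lists, after low R:FR and in white light, with limma's SE as bars. An asterisk marks genes called after low R:FR. HAT2, IAA29, GH3.3, AT2G18010, WES1 and EXLA2 are called lower, and none of the 22 is called higher in the fit without the replicate block that is plotted.

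Cell wall loosening genes gave 1 call, or 3 with the replicate block. Of 23 expansin and XTH genes measured, 18 were below 0, and the median was -0.21, against 0.00746 over all probe sets. All sav3-2 arrays lay below all Col-0 arrays for 6 of the 23, against 7.53% of all probe sets. Called lower was 1 of the 23, against 0.642% of all probe sets. The called gene was EXLA2, an expansin-like protein, at 6.71, 6.64 and 6.69 in sav3-2 and 7.18, 7.23 and 7.41 in Col-0 (-0.60, SE 0.14, adjusted p = 0.0353). Its white light difference was -0.09. EXPA8, a bright expansin, measured 9.50, 9.45 and 8.76 in sav3-2 and 10.34, 10.12 and 9.89 in Col-0. That difference of -0.88 had an adjusted p of 0.0787 without the block (SE 0.23) and 6.79e-05 with it (SE 0.12). The third gene called with the block was EXLB1, an expansin-like protein (-0.79, SE 0.15, adjusted p = 0.00329). In white light EXPA8 (-0.60, adjusted p = 0.00982) and EXLB1 (-0.73, adjusted p = 0.0103) were called lower with the block too. Neither was called there without it. XTH33, a xyloglucan endotransglucosylase/hydrolase on the shade marker list, stood at -0.56 (SE 0.19). Of 5 shade markers measured, HAT2 and IAA29 were called lower, and FHL, a factor for nuclear import of phytochrome A, stood at 0.07 (SE 0.27). The remaining marker, YUC2, went the other way at 0.44, with all sav3-2 arrays above Col-0. YUC2 was called higher with the block and not without it.

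Other lower genes were called in white light too, or not called there, as given for each. AT5G44440, a berberine bridge enzyme-like oxidase, was close to the lower end of the scale in sav3-2, at 4.06, 4.21 and 4.26, against 5.51, 5.49 and 5.58 in Col-0. It was lower after low R:FR (-1.35, SE 0.20, adjusted p = 0.000406) and in white light (-0.97, SE 0.20, adjusted p = 0.0262). Late embryogenesis abundant (LEA) proteins, which accumulate in drying seeds and under water stress, gave 2 calls of 8 genes on the LEA and cold-regulated list. Among all probe sets tested 0.642% were called lower. LEA18 measured 6.0, 5.96 and 5.93 in sav3-2 and 6.99, 6.96 and 6.36 in Col-0 (-0.81, SE 0.17, adjusted p = 0.0148), and was lower in white light as well (-0.91, adjusted p = 0.0104).

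LEA4-5 measured 4.25, 5.04 and 4.50 in sav3-2 and 5.75, 5.66 and 5.96 in Col-0 (-1.19, SE 0.29, adjusted p = 0.0428). In white light its difference of -1.1 was not called without the block (adjusted p = 0.124) and was called with it (adjusted p = 0.0125). Its call held in 1 of 6 fits that left out 1 array, that without sav3-2 SH replicate 2, and was lost without Col-0 SH replicate 1 (-1.21, adjusted p = 0.108), 2 (-1.27, adjusted p = 0.0966) or 3 (-1.11, adjusted p = 0.132) and without sav3-2 SH replicate 1 (-1.02, adjusted p = 0.211) or 3 (-1.14, adjusted p = 0.125). It was lost too with a pseudocount of 1 (adjusted p = 0.220), no filter (adjusted p = 0.0630), array weights (adjusted p = 0.0711), no arrays numbered 3 (adjusted p = 0.177) and no intensity trend (adjusted p = 0.0561). COR15A, a cold-regulated chloroplast protein, measured 5.61, 5.67 and 5.44 in sav3-2 and 7.65, 6.14 and 6.62 in Col-0. Its difference of -1.23 was not called without the block (SE 0.42, adjusted p = 0.230) and was called with it (SE 0.30, adjusted p = 0.0230), as was that in white light (-1.22, adjusted p = 0.0374). The list's median was -0.56 after low R:FR, against 0.00746 over all probe sets, and 7 of its 8 genes were below 0. In white light 1 of the 8 was called lower without the block and 3 with it. Outside the list, AtLEA4-1 was called too (-0.86, SE 0.20, adjusted p = 0.0346). AT5G13980, a member of the alpha-mannosidase family, was lower by -0.90 after low R:FR (adjusted p = 0.000193) and by -1.01 in white light (adjusted p = 9.35e-05), and AT1G12080, annotated as related to vacuolar calcium-binding proteins, by -0.86 (adjusted p = 0.00248) and -0.78 (adjusted p = 0.0133).

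In the other direction, QQS differed most. QQS measured 8.89, 8.56 and 8.72 in sav3-2 after low R:FR, against 5.46, 5.25 and 5.94 in Col-0. It was 8.99-fold higher in the mutant (3.2, SE 0.23, adjusted p = 3.76e-08), with no overlap. Its white light levels were nearly the same, 8.69 ± 0.36 in sav3-2 and 5.46 ± 0.47 in Col-0 (SD, n = 3 each).

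AT2G25510, of unknown function, measured 12.52, 12.52 and 12.62 in sav3-2 and 9.88, 10.07 and 10.80 in Col-0 (2.3, SE 0.27, adjusted p = 2.26e-05). AT2G41090, a calmodulin-like calcium-binding protein, measured 11.58, 11.46 and 11.50 in sav3-2 and 9.36, 9.48 and 10.15 in Col-0 (1.85, SE 0.31, adjusted p = 0.00180). For both genes the sav3-2 arrays were tight and Col-0 replicate 3 was the highest of its group. AT1G19960, of unknown function, was higher by 1.84 (SE 0.19, adjusted p = 3.93e-06), with 9.41, 9.14 and 8.49 in sav3-2 and 7.34, 6.94 and 7.26 in Col-0. AT2G25510 (1.96), AT2G41090 (1.78) and AT1G19960 (1.99) were also called higher in white light.

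**Figure D3:**
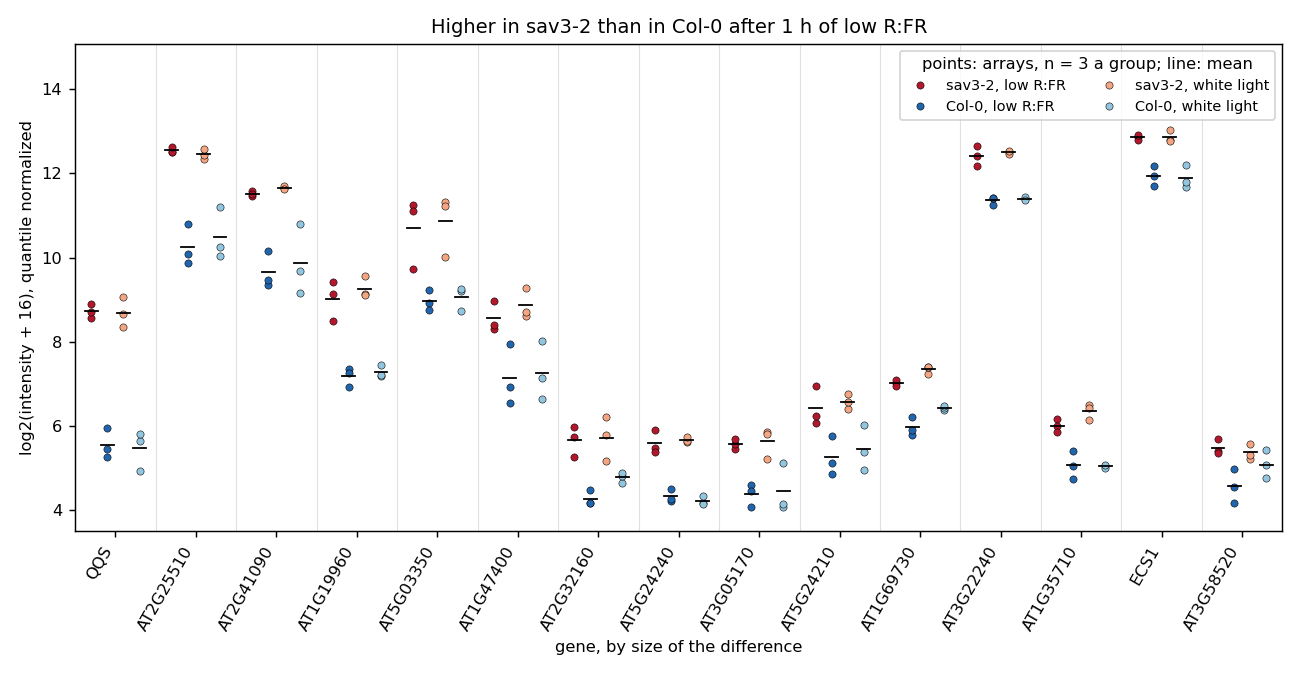
Level of the 15 named genes furthest above Col-0 in sav3-2 after low R:FR, as log2(intensity + 16) per array. Shown are sav3-2 and Col-0 after low R:FR and in white light (points are arrays, n = 3 a group, and lines are means). In all 15 the sav3-2 arrays after low R:FR lie above the Col-0 arrays, and QQS means are 8.72 in shaded sav3-2 and 8.69 in sav3-2 in white light.

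Other named genes among the higher calls follow. AT5G03350, a legume lectin-like protein known to respond to salicylate, measured 11.26, 11.11 and 9.74 in sav3-2 and 8.93, 9.23 and 8.76 in Col-0 (1.73, SE 0.35, adjusted p = 0.0109). The third sav3-2 array lay below the other two and above all Col-0 arrays. Its call was lost without Col-0 SH replicate 1 (1.70, adjusted p = 0.0501), sav3-2 SH replicate 1 (1.45, adjusted p = 0.10) or sav3-2 SH replicate 2 (1.52, adjusted p = 0.0965). ECS1, a cell wall protein linked to resistance to Xanthomonas, was bright, at 12.86 ± 0.05 in sav3-2 and 11.93 ± 0.24 in Col-0 (SD, n = 3 each; 0.93, SE 0.17, limma adjusted p = 0.00397). AT3G22240, a small cysteine-rich protein, stood at 12.41 ± 0.25 in sav3-2 and 11.37 ± 0.10 in Col-0 (1.04, SE 0.13, limma adjusted p = 5.90e-05). AT1G69730, a wall-associated kinase-like protein (1.06, SE 0.14, adjusted p = 0.000158), and AT1G35710, a leucine-rich repeat receptor kinase (0.94, SE 0.17, adjusted p = 0.00475), were higher. With only the 6 arrays of the comparison in the fit, AT1G35710 had an adjusted p of 0.0510. AT3G16530, a second lectin-like protein, was higher by 0.69 (adjusted p = 0.0105), and AT3G04210, of the TIR-NBS resistance protein type, by 0.79 (adjusted p = 0.0278).

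Of 50 entries on the list of salicylate-linked defence genes 4 were measured, none was called, and the median was 0.20. SAG101, a partner of EDS1 in resistance signalling, stood at 0.47 (SE 0.19), and UGT76B1, a glucosyltransferase that restrains salicylate responses, at 0.35 (SE 0.14). For both, the sav3-2 arrays lay above the Col-0 arrays, as they did for 7.8% of all probe sets tested. The genotypes overlapped for WRKY53, a WRKY transcription factor (0.04, SE 0.23), and for GRX480, a glutaredoxin (-0.08, SE 0.23).

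Of the 2 genes measured on the iron deficiency list, none was called after low R:FR without the replicate block and 1 with it. Outside that list, AT1G47400 encodes a small peptide of iron-deficiency signalling and measured 8.31, 8.96 and 8.39 in sav3-2 and 6.54, 6.92 and 7.94 in Col-0 (1.42, SE 0.33, adjusted p = 0.0348). The Col-0 arrays spread widely, and the call was kept in 1 of 6 fits that left out 1 array, that without Col-0 SH replicate 3. In the remaining fits the difference was 1.12 and 1.31 without Col-0 SH replicates 1 and 2, and 1.54, 1.21 and 1.5 without sav3-2 SH replicates 1, 2 and 3, with adjusted p from 0.0662 to 0.221. It was lost too with no filter on dim probe sets (adjusted p = 0.0703) and with no intensity trend (adjusted p = 0.0836). BHLH101, a transcription factor induced by iron deficiency, measured 6.80, 7.21 and 6.57 in sav3-2 and 5.62, 5.91 and 6.14 in Col-0. This difference of 0.97 had an adjusted p of 0.0614 without the block (SE 0.25) and 0.0257 with it (SE 0.24), and that in white light was called (1.21, adjusted p = 0.0231). PYE, a regulator of iron homeostasis, stood at 0.57 (SE 0.22, adjusted p = 0.326).

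The remaining genes among the 15 furthest above Col-0 were dim or variable. AT5G24240, a phosphatidylinositol 4-kinase-like protein, was higher by 1.26 (SE 0.19, adjusted p = 0.000454), and AT5G24210, a lipase-like protein whose gene lies 4 genes away, by 1.17 (SE 0.28, adjusted p = 0.0389). AT2G32160 was higher by 1.39, AT3G05170, a phosphoglycerate mutase-like protein, by 1.2, and AT3G58520 by 0.92. Leaving out 1 array ended the call of AT5G24210 without Col-0 SH replicate 1 (1.1) or 2 (0.98) or without sav3-2 SH replicate 2 (1.26) or 3 (0.90). It ended that of AT2G32160 without sav3-2 SH replicate 1 (1.23). It ended that of AT3G05170 without sav3-2 SH replicate 1 (1.27), 2 (1.19) or 3 (1.13) or Col-0 SH replicate 3 (1.05). For AT3G58520 the call ended without sav3-2 SH replicate 1 (0.96), 2 (0.98) or 3 (0.81) or without Col-0 SH replicate 2 (0.73) or 3 (0.91). Other settings ended some of these calls as well. AT5G24210 was lost with a pseudocount of 1 (adjusted p = 0.0580), no filter (adjusted p = 0.0771), the stricter filter (adjusted p = 0.0521), no intensity trend (adjusted p = 0.0719) and only the arrays of the comparison (adjusted p = 0.0714). AT3G05170 was lost with a pseudocount of 1 (adjusted p = 0.0616) and without the arrays numbered 3 (adjusted p = 0.0605), and AT3G58520 without those arrays (adjusted p = 0.232) and with only the arrays of the comparison (adjusted p = 0.136). In all 9 of the 30 genes lost a call in at least 1 fit that left out 1 array, not counting the other settings. No fit changed the sign of a difference. In white light AT5G24240 (1.44) and AT3G05170 (1.19) were also called higher. There AT2G32160 (0.94), AT5G24210 (1.11) and AT3G58520 (0.29) were not called without the replicate block. With it AT2G32160 and AT5G24210 were called higher and AT3G58520 was not.

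The arrays kept in white light are separate from those after low R:FR and show which differences were there without shade. In white light 46 probe sets were called higher in sav3-2 (0.269% of those tested) and 36 lower (0.21%), in all 82 (0.479%). Of the 67 higher after low R:FR, 34 (50.7%) were also called higher in white light, which is 73.9% of the white light calls. Of the 110 lower after low R:FR, 25 (22.7%) were also called lower in white light, which is 69.4% of those calls. No probe set was called in opposite directions. The median white light difference over the 67 higher was 0.74 (quartiles 0.33 and 1.15), beside 0.82 after low R:FR. Over the 110 lower it was -0.45 (quartiles -0.70 and -0.26), beside -0.88 after low R:FR. Members were selected on the arrays after low R:FR, which tends to make the value after low R:FR the larger.

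**Figure D4:**
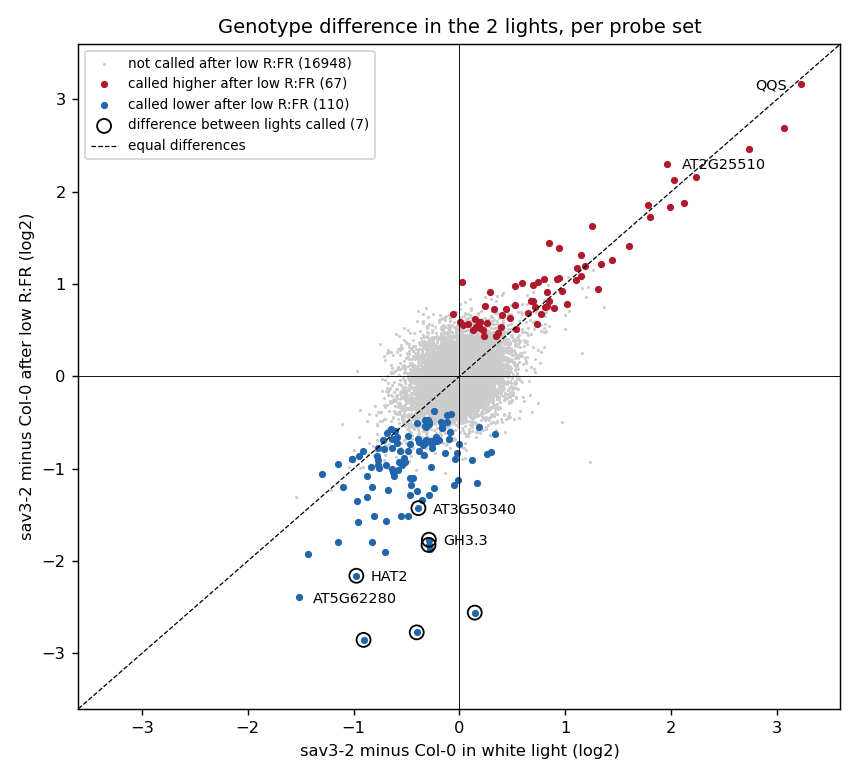
Difference sav3-2 minus Col-0 (log2) after low R:FR against that in white light for the 17125 probe sets tested, with those called after low R:FR coloured, 7 whose differences differ between the lights circled, and the dashed line at equal values. Among higher probe sets, QQS (3.2 after low R:FR and 3.23 in white light) lies near the line and AT1G78170 (0.68 and -0.06) above it. The circled ones, with HAT2 (-2.16 and -0.97) and GH3.3 (-1.77 and -0.29), lie below the line.

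Whether a difference itself differed between the lights was tested as an interaction over all probe sets. It was called for 7 (0.0409%), all of them among the 110 lower after low R:FR. The 3 that name a gene were GH3.3, with a difference between lights of -1.48 (SE 0.20, adjusted p = 0.00147), HAT2 with -1.19 (SE 0.19, adjusted p = 0.0102) and AT3G50340 with -1.04 (SE 0.18, adjusted p = 0.0234). For AT2G18010 it was -1.32 (SE 0.28, adjusted p = 0.169), for P1R3 -1.13 (SE 0.34) and for AT5G41400 -0.99 (SE 0.20, adjusted p = 0.120), none of which passed. For QQS it was -0.06 (SE 0.33). Without Col-0 Wc replicate 2 there were 4 such calls, and HAT2 stood at -1.12 (adjusted p = 0.0602). HAT2 also missed the threshold with a pseudocount of 1 (adjusted p = 0.0502) and with only the arrays of the comparison (adjusted p = 0.0613). So did AT3G50340, with a pseudocount of 1 (adjusted p = 0.153), with only those arrays (adjusted p = 0.105) and without the arrays numbered 3 (-0.87, adjusted p = 0.504). With 1 array left out, AT3G50340 missed the threshold in 8 of 12 fits, at values from -1.08 to -0.94: those without replicate 1 of either genotype after low R:FR, replicate 2 of either genotype in white light, or replicate 3 of any of the 4 groups. On values as deposited none of the 3 passed (-1.19, -0.87 and -0.77 for GH3.3, HAT2 and AT3G50340, each at an adjusted p of 0.855).

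Each genotype's own change, low R:FR minus white light, stands behind these differences, and both share arrays with the comparison above. GH3.3 changed by 0.29 in sav3-2 (SE 0.14, adjusted p = 0.604), which did not pass, and rose by 1.77 in Col-0 (SE 0.14, adjusted p = 4.43e-08). HAT2 rose by 0.98 in sav3-2 (SE 0.13, adjusted p = 0.000193) and by 2.17 in Col-0 (SE 0.13, adjusted p = 1.16e-09). IAA29 rose in both, by 2.74 in sav3-2 (SE 0.35, adjusted p = 7.32e-05) and by 3.38 in Col-0 (SE 0.35, adjusted p = 2.19e-06). The shade response of IAA29 was thus present in the mutant, and its difference between lights, -0.64 (SE 0.49), did not pass. For AT2G18010 the change was 0.49 in sav3-2 (SE 0.20, adjusted p = 0.474) and 1.81 in Col-0 (SE 0.20, adjusted p = 7.01e-06). For P1R3 it was 0.32 in sav3-2 (SE 0.24, adjusted p = 0.798) and 1.45 in Col-0 (SE 0.24, adjusted p = 0.0011). AT5G62280 rose by 1.29 in sav3-2 (adjusted p = 0.00189) and by 2.17 in Col-0 (adjusted p = 1.25e-06). AT3G50340 rose by 0.70 in sav3-2 (adjusted p = 0.00511) and by 1.74 in Col-0 (adjusted p = 1.71e-08). For AT5G41400 the change was 0.19 in sav3-2 (adjusted p = 0.797) and 1.19 in Col-0 (adjusted p = 1.98e-05). Among the genes higher in sav3-2, QQS differed between the lights by 0.03 in sav3-2 (SE 0.23) and by 0.09 in Col-0 (SE 0.23), and ECS1 by -0.01 in sav3-2 (SE 0.17) and 0.04 in Col-0 (SE 0.17).

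Levels in sav1-1 seedlings after low R:FR are given beside those of sav3-2 for 5 of the 30 named genes, which do not stand for the rest. The labels do not name the gene mutated in sav1-1. For HAT2 the level was 8.04 ± 0.30 in sav3-2, 9.99 ± 0.14 in sav1-1 and 10.20 ± 0.10 in Col-0 (SD, n = 3 each). GH3.3 averaged 6.65 ± 0.25 in sav3-2, 9.56 ± 0.17 in sav1-1 and 8.42 ± 0.15 in Col-0. QQS was at 8.72 ± 0.17 in sav3-2, 5.17 ± 0.17 in sav1-1 and 5.55 ± 0.35 in Col-0. AT5G44440 was at 4.18 ± 0.10 in sav3-2, 4.34 ± 0.19 in sav1-1 and 5.53 ± 0.05 in Col-0, and AT3G05170 at 5.58 ± 0.12 in sav3-2, 5.49 ± 0.15 in sav1-1 and 4.38 ± 0.27 in Col-0. sav3-2 lay away from both sav1-1 and Col-0 in the first 3 genes and beside sav1-1 in the last pair. The difference between sav3-2 and sav1-1 was not tested. By limma, sav1-1 minus Col-0 was 1.15 for GH3.3 (SE 0.14, adjusted p = 0.000373) and -1.19 for AT5G44440 (SE 0.20, adjusted p = 0.00921). Among other genes lower in sav3-2, sav1-1 minus Col-0 was -0.85 for AT3G48970 (SE 0.15, adjusted p = 0.0182) and -0.02 for AT5G62280 (SE 0.21).

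Markers of organs were few on named probe sets. Of 6 photosynthesis genes, which mark green tissue, none was called, and their summed intensity ran from 31829 to 38404 in sav3-2 and from 34553 to 37563 in Col-0. Both root hair expansins measured, EXPA7 (-0.30, SE 0.19) and EXPA18 (-0.29, SE 0.15), were lower on all sav3-2 arrays, as were 7.53% of all probe sets tested. Their summed intensities were 58.6 to 72.2 in sav3-2 and 75.7 to 106 in Col-0, and neither was called. Their part in the results was not tested. The 1 seed gene measured, OLEO3, stood at -0.65 (SE 0.23, adjusted p = 0.265), and no floral organ gene was measured. In the large families none was called of 34 UDP-glycosyltransferases (differences from -0.45 to 0.44), 14 cytochrome P450 genes (median 0.01) or 5 WRKY genes (median 0.03).

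By gene order in the TAIR10.1 gene table, 3 of the 61 named genes tested within 100 genes of TAA1 on either side were called (4.92%), against 74 of 9248 genes with a known position (0.8%). These were AT1G69730, AT1G70160, which was higher by 0.51, and AT1G70180, which was lower by -0.49. Within 50 genes it was 2 of 31, within 200 genes 3 of 141 and within 400 genes 6 of 296, windows set after the values were seen.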

How the data were processed

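The values the authors deposited are linear intensities, 1 for each probe set on an array. GCRMA is a tool that the submitters' processing notes list, with no settings. Deposited medians differ between arrays, so values of all 18 arrays were quantile normalized after 64 control probe sets had been dropped, and log2(value + 16) was used. Kept were probe sets with log2 intensity over 4 on at least 3 arrays (17125 of 22746). Precision is limited by the number of arrays. Limma 3.58.1 (R 4.3.3) fitted 1 mean per group to the 18 arrays, so that all groups share 1 spread, using eBayes with an intensity trend and two-sided tests, Benjamini-Hochberg adjusted over all probe sets, and was tested on simulated data.

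Gene names came from the platform annotation, updated through a TAIR10.1 gene table: 9469 kept probe sets name 1 gene (9449 matched), 349 several and 7307 are unnamed here. Named were the 15 largest called differences in each direction whose arrays do not overlap, interaction calls and members of the gene lists, represented by the brightest probe set. A few more are named as chosen after their values were seen. The genes, lists and tests were chosen with earlier results of these data known. Sequences were not analysed here.

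Same-numbered arrays of the genotypes deviated together from their group means after low R:FR (r = 0.101 to 0.313, against -0.199 to 0.107 for unlike numbers, so that 1 unlike pair exceeded the lowest like pair). Each like pair was over 0.1, so replicate numbers were taken to pair them, from the titles. The main fit leaves the block out, so its SE and adjusted p-values ignore this pairing. Counts from the fit with the block are given beside the main ones. Alternatives covered normalization, pseudocount, filter, block, arrays in the fit, array weights, trend and leaving out arrays.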

Additional observations from a re-analysis of the deposited data

Results flagged for a closer look

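The difference between sav3-2 and Col-0 was not the same after low R:FR as in white light for 7 probe sets, by limma's interaction test. Named among them are GH3.3 (-1.48), HAT2 (-1.19) and AT3G50340 (-1.04), and the 4 unnamed ones stood at -1.95, -1.53, -2.37 and -2.70. All 7 stood lower in sav3-2 relative to Col-0 after low R:FR than in white light.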

How the results depend on the processing

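Leaving out 1 array gave 29 to 68 probe sets higher and 65 to 96 lower after low R:FR, 22 to 51 higher and 10 to 36 lower in white light, and 4 to 10 differing between the lights. With the replicate number as a block 172 were higher and 225 lower after low R:FR, and 90 higher and 117 lower in white light; the block ended none of the 30 named calls and added GH3.17, YUC2, EXPA8, EXLB1, COR15A, BHLH101 and GSTU27 (0.41, adjusted p = 0.0428) among list genes after low R:FR, and all 67 and 110 calls remained among them. Array weights gave 104 higher after low R:FR, 83 higher and 87 lower in white light and 12 differing between the lights. Without the arrays numbered 3 these were 111 higher after low R:FR and 85 and 82 in white light. Values as deposited gave 36 lower after low R:FR, 27 higher and 19 lower in white light, and 3 differing. With only the arrays of a comparison, 44 were higher after low R:FR, 24 and 6 higher and lower in white light, and 4 differed. In white light 18 were lower with no filter and 15 with no intensity trend. A pseudocount of 1 gave 2 differing between the lights and one of 64 gave 12. Of the 30 named genes 15 kept their call in every setting that tested them, 26 on values as deposited and 27 without the arrays numbered 3, and none changed sign. Among those 15, AT5G24240 and AT5G44440 were too dim for the stricter filter and were not tested under it. A pseudocount of 1 ended the calls of LEA4-5, P1R3, AT2G18010, AT3G05170 and AT5G24210. The cause of these changes was not tested, and dim probe sets give the least precise differences.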
